A study of Bos taurus with 18 samples.

Results

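Aggrecan (ACAN), versican (VCAN) and the link proteins HAPLN1 and HAPLN3 were followed through bovine bone marrow mesenchymal stem cells (MSCs). They were taken by gene symbol, and all 4 were found among the 16989 genes counted. A usable level was obtained for 3 of them, since VCAN drew almost no reads.

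Aggrecan and versican are large proteoglycans of the lectican family, protein cores that carry chondroitin sulfate chains. Their N-terminal domain binds hyaluronan, and a link protein clamps that bond, so that many proteoglycans are held along a single hyaluronan strand. In cartilage, aggregates of aggrecan, HAPLN1 and hyaluronan hold water and resist compression, and versican belongs more to looser and developing tissues.

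Cells from the marrow of juvenile cattle were grown on tissue culture plastic in DMEM with serum and antibiotics, and their poly(A) RNA was sequenced at passage 1. There were 17 clones, lettered A to Q and each the offspring of a single cell, and 1 heterogeneous (many-cell) population called Het. Every library stands for 1 culture sequenced once, no chondrogenic factor had been added, and the number of animals behind the clones is not given in the sources used here. The study asked whether clones could be told apart in advance by their RNA for later cartilage-like matrix formation, a readout not analysed here.

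The clone libraries held 11484812 to 18458157 reads on genes (median 14193790) and Het held 16092501. Levels are given in CPM, a gene's reads scaled to the reads on genes in its library, and spreads on log2(CPM + 0.25). Of 11 MSC surface and stromal marker genes all 11 had reads in some library, but LEPR had only 0 to 2 per clone. VCAM1 had a median of 0.0664 CPM over the clones. The summed level of the 11 was 2982 to 6138 CPM in the clones and 3529 CPM in Het, and ITGB1 made up 48.15% of the mean sum over clones. The 15 macrophage markers summed to 2.98 to 9.41 CPM in the clones against 176 CPM in Het, with MARCO at 0 throughout. Clones C and O were the most alike of all pairs, with r = 0.995 across genes, and a chi-square of 4.91 per degree of freedom between their counts, against 22.4 for the next closest pair. Both carry labels of separate clones and were kept, but a shared origin was not tested, and with their counts summed the r of ACAN with HAPLN1 was 0.90 over 16 samples (rho 0.85, adjusted permutation p = 0.000405 and 0.00284). Gene lengths were not used, so ratios between members are compared between libraries only.

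VCAN was listed at 0 reads in 15 of the 18 libraries and at 1 read in clones E and H and in Het, 3 reads in all. The limit that a count of 0 allows, taken as 3 reads, corresponded to 0.163 to 0.261 CPM depending on the library. PGK1, a glycolytic enzyme used by practically every cell, had 0 reads in all libraries, and GAPDH, another such enzyme, had only 1 to 12, while the actin gene ACTB had 33088 to 86964. Since genes that every cell uses were also near 0 in these files, the VCAN entry gives no measure of versican RNA, and no relation was computed for it.

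ACAN, the core protein of aggrecan, had the widest range of the members. Its level was 19.5 CPM (311 reads) in clone H, 117 CPM at the median clone A and 3032 CPM (41761 reads) in clone N, a 156-fold span. Clones H, E, I and M were lowest, at 19.5, 34.3, 42.2 and 45.3 CPM. Clones F and B, at 82.6 and 82.8 CPM, could not be told apart, and neither could J, G and A at 111, 115 and 117 CPM. Above them came K at 154 CPM, L at 279 CPM and D at 294 CPM. The widest step in the order, 1.37 log2 units, lay between D and clone P at 762 CPM, and C, Q and O followed at 1253, 1348 and 1437 CPM. The next widest step, 1.08 log2 units, separated O from N.

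The spread of ACAN was far above counting error. Over the 17 clones the mean was 542 ± 809 CPM (SD, n = 17), and the SD was 2.16 log2 units, whereas counting alone gives 0.0396. Of 16 neighbouring pairs in the order, 5 had overlapping 95% Poisson intervals. Of the 11477 genes above 1 CPM in some clone, 99.887% had a smaller SD than ACAN, which ranked 13 from the top, and the median gene had an SD of 0.35. Het stood at 53.0 CPM (853 reads), above 4 clones and below the other 13.

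HAPLN1, the link protein of cartilage, ranged from 5.51 CPM (83 reads) in clone F through 10.97 CPM at the median clone D to 132 CPM (1818 reads) in clone N, a 23.9-fold span. Clones F, I, H, G, B, E, A, M, D and J lay together between 5.51 and 13.03 CPM, with no step over 0.30 log2 units. The widest step, 1.17 log2 units, set them apart from K at 29.5, L at 33.3, C at 35.4 and O at 40.1 CPM. Clones P, Q and N were highest, at 62.7, 111 and 132 CPM. The SD was 1.48 log2 units against a counting error of 0.11, larger than in 98.702% of genes (rank 149). In 12 of the 16 neighbouring pairs the Poisson intervals overlapped, so the exact order within the low group is not resolved at this depth. Het had 4.29 CPM (69 reads), below every clone, but its 95% Poisson interval of 3.34 to 5.43 CPM overlapped those of clones F, I and H.

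HAPLN3, a link protein made in many tissues outside cartilage, followed another order. Its level was 2.17 CPM (40 reads) in clone M, 16.8 CPM at the median clone N and 41.2 CPM (569 reads) in clone I, a 19.0-fold span. Clones M and H stood lowest, at 2.17 and 4.01 CPM, and the widest step, 1.004 log2 units, separated H from A at 8.29 CPM. A, E, D and K lay between 8.29 and 9.80 CPM, and Q, P, N, F, B, O, C, L and J between 12.8 and 25.5 CPM. G, at 35.4 CPM, and I were highest, and both were in the lower part of the HAPLN1 order. The SD of 1.06 log2 units was larger than in 94.101% of genes (rank 677), with a counting error of 0.12 and 12 of 16 neighbouring pairs overlapping. Het had 15.97 CPM (257 reads), above 8 clones. Without clone M the SD fell to 0.86, the lowest value when any clone was left out.

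**Figure D1:**
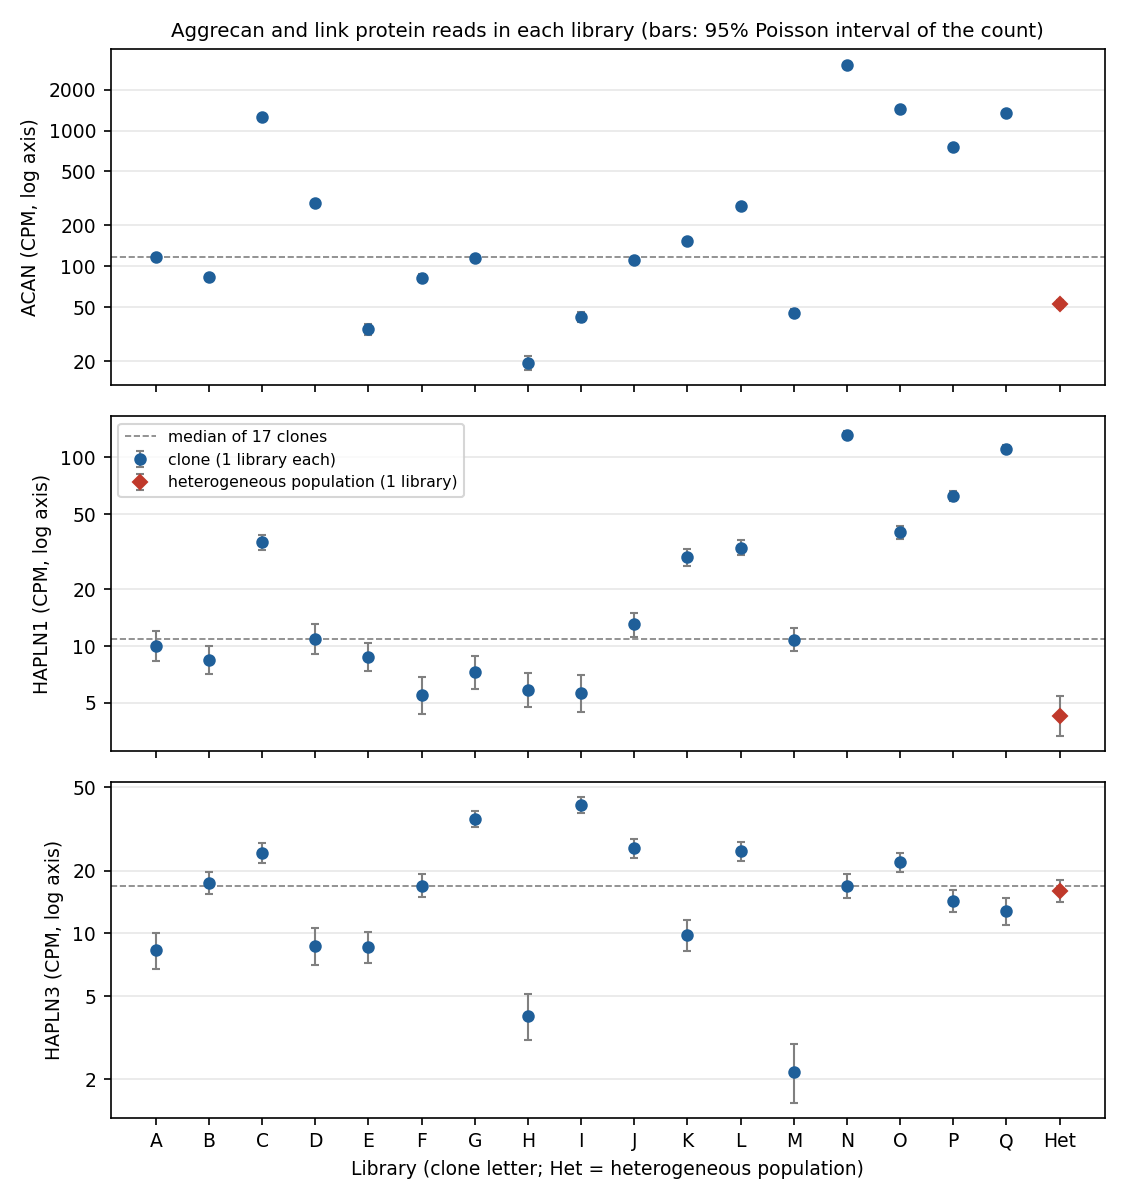
ACAN, HAPLN1 and HAPLN3 in CPM on log axes, 1 panel per gene, with 1 point per library and its 95% Poisson interval; the dashed line is the median of the 17 clones. ACAN and HAPLN1 peak in clone N at 3032 and 132 CPM, and HAPLN3 peaks in clone I at 41.2 CPM. The point of Het (red) lies below all clones for HAPLN1 at 4.29 CPM, with an interval that overlaps those of F, I and H.

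**Figure D2:**
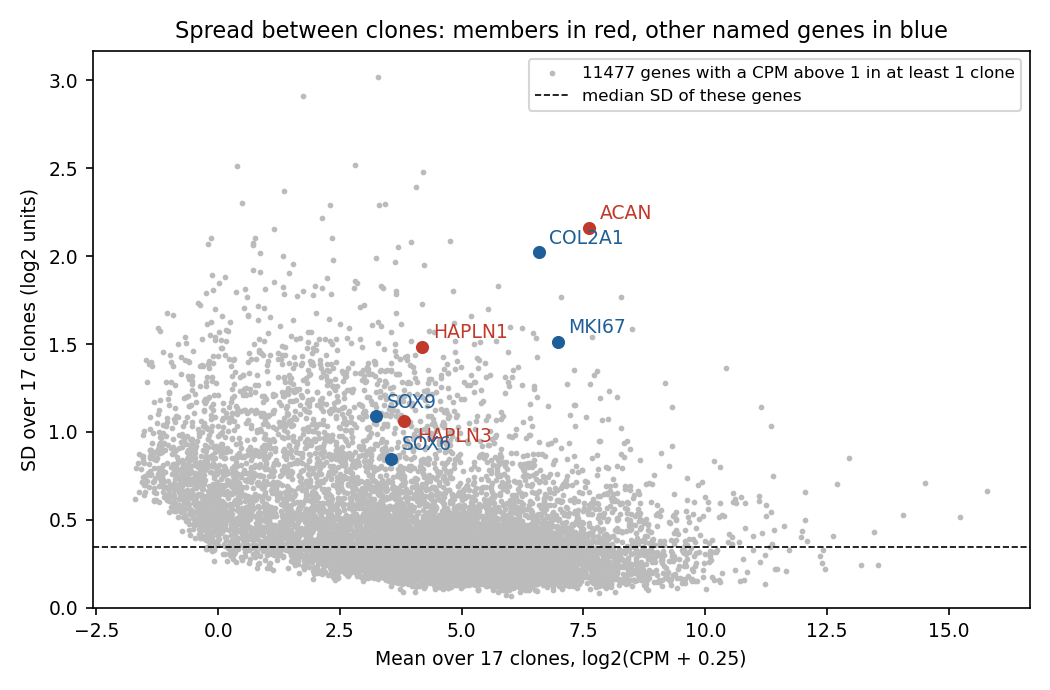
SD against mean of log2(CPM + 0.25) over the 17 clones for 11477 genes (grey), with members in red and SOX9, SOX6, COL2A1 and MKI67 in blue. ACAN lies near the top at an SD of 2.16, HAPLN1 is at 1.48 and HAPLN3 at 1.06, above the dashed median of 0.35.

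ACAN and HAPLN1 were high in the same clones. Pearson's r between them was 0.89 over the 17 clones (adjusted p = 0.000135 by permutation) and Spearman's rho was 0.87 (adjusted p = 0.000405). The raw p for r, 1e-05, is the smallest that 100000 permutations can give, and adjustment was over 27 relations. Without clones N and O, the farthest from the ACAN median, r was 0.86. With any single clone left out it stayed between 0.86 and 0.91. Among the 12 clones below the widest ACAN step, a subset chosen after seeing the data, r was 0.64 (permutation p = 0.0237, adjusted p = 0.214), which passed before adjustment and not after it, over fewer clones and a narrower range of ACAN. In that subset the r of ACAN with log2 library total was -0.67 (rho -0.74, permutation p = 0.0159 and 0.00793, adjusted p = 0.214 for both), against -0.17 (rho -0.30) over the 17 clones, and the part of library size in the subset was not tested.

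No such relation was found for HAPLN3. Its r with ACAN was 0.34 (rho 0.18, adjusted permutation p = 0.278 and 0.594), and with HAPLN1 it was 0.13 (rho -0.0098, adjusted permutation p = 0.668 and 0.996). Without the 2 farthest clones these r were 0.31 and 0.15. Whether HAPLN1 followed ACAN more closely than HAPLN3 did was tested on the ratio of HAPLN1 to HAPLN3, as 1 of 6 relations of ratios chosen after seeing the data. That ratio had r = 0.56 with ACAN (rho 0.56, permutation p = 0.0208 and 0.0219), which missed the threshold after adjustment (adjusted p = 0.0624 and 0.0658), and r was 0.46 without N and O. A difference between the link proteins in this respect is therefore not shown.

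The make-up of the pair varied as well as its amount. Reads of ACAN per read of HAPLN1 were 3.31 in clone H, 11.6 at the median clone A and 35.8 in clone O, and Het had 12.4. Clone C, close to O in its whole profile, had 35.4 such reads, while N, P and Q had 23.0, 12.2 and 12.1. Gene length cancels when such a ratio is compared between clones. Reads of HAPLN3 per read of HAPLN1 ran from 0.115 in clone Q through 0.742 at the median clone L to 7.29 in clone I, a 63.5-fold span, and Het had 3.72. The highest values of this ratio after clone I were 4.86 in G and 3.07 in F.

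SOX9 and its partners SOX5 and SOX6 are the transcription factors that switch on ACAN, COL2A1 and HAPLN1 in developing cartilage, and COL2A1 encodes the main cartilage collagen. ACAN had r = 0.84 with SOX6, 0.69 with SOX9, 0.74 with COL2A1 and 0.62 with SOX5 (adjusted p = 0.00036, 0.0107, 0.00578 and 0.0219 by permutation), and rho was 0.81, 0.73, 0.69 and 0.52 (adjusted p = 0.00117, 0.00763, 0.0162 and 0.083 by permutation). Without N and O these r were 0.80, 0.59, 0.71 and 0.49. HAPLN1 had r = 0.87 with SOX6, 0.75 with SOX5, 0.66 with SOX9 and 0.61 with COL2A1 (adjusted p = 0.000135, 0.00304, 0.018 and 0.027 by permutation), with rho of 0.86, 0.63, 0.63 and 0.57 (adjusted p = 0.000405, 0.0326, 0.0326 and 0.0584 by permutation). Without N and Q, the farthest from its median, they were 0.84, 0.52, 0.60 and 0.66. All 4 genes thus went with both members by r, whereas SOX5 with ACAN and COL2A1 with HAPLN1 missed the threshold by rank. The calls by r of these relations also depended on single clones, since ACAN with SOX5 was lost without E, N or Q (adjusted permutation p up to 0.145, without N) and HAPLN1 with COL2A1 without I or P (up to 0.0614, without P). In the 12 clones below the ACAN step the r of ACAN with SOX6, SOX9, COL2A1 and SOX5 were 0.49, 0.26, 0.23 and 0.20. Those of HAPLN1 with SOX6, SOX5, SOX9 and COL2A1 were 0.66, 0.42, 0.27 and 0.073. None of these relations passed after adjustment in that subset.

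HAPLN3 did not pass with any of these 4 genes (r from 0.16 to 0.48). It did with MKI67, a nuclear protein of dividing cells, at r = 0.62 and rho = 0.60 (adjusted permutation p = 0.0219 and 0.0465), and r was 0.68 without H and M. The call was lost without clone G or without clone M, where r was lowest at 0.49 (adjusted p = 0.126). It was also lost in the 12 clones below the ACAN step (r = 0.61, adjusted permutation p = 0.251). The ratio of HAPLN3 to HAPLN1 had r = 0.25 with MKI67 (rho 0.032, permutation p = 0.335 and 0.907), so no difference between the link proteins was shown here either. HAS2, which makes hyaluronan, was at 0.290 to 4.55 CPM in the clones and passed with no member over them. Its r was 0.41 with ACAN, 0.39 with HAPLN1 and -0.072 with HAPLN3, and rho was 0.39, 0.55 and -0.049. The rho with HAPLN1 was nearest (permutation p = 0.0234, adjusted p = 0.0632). With Het included it was 0.62 and passed (adjusted permutation p = 0.0236), while r was 0.47 and did not (0.1005). Over the 17 clones library size and the share of reads outside genes also passed with none, the closest being HAPLN1 with the latter (r = 0.50, rho = 0.21, adjusted permutation p = 0.0891 and 0.527). In all, 10 of 27 relations passed by r and 8 by rho.

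**Figure D3:**
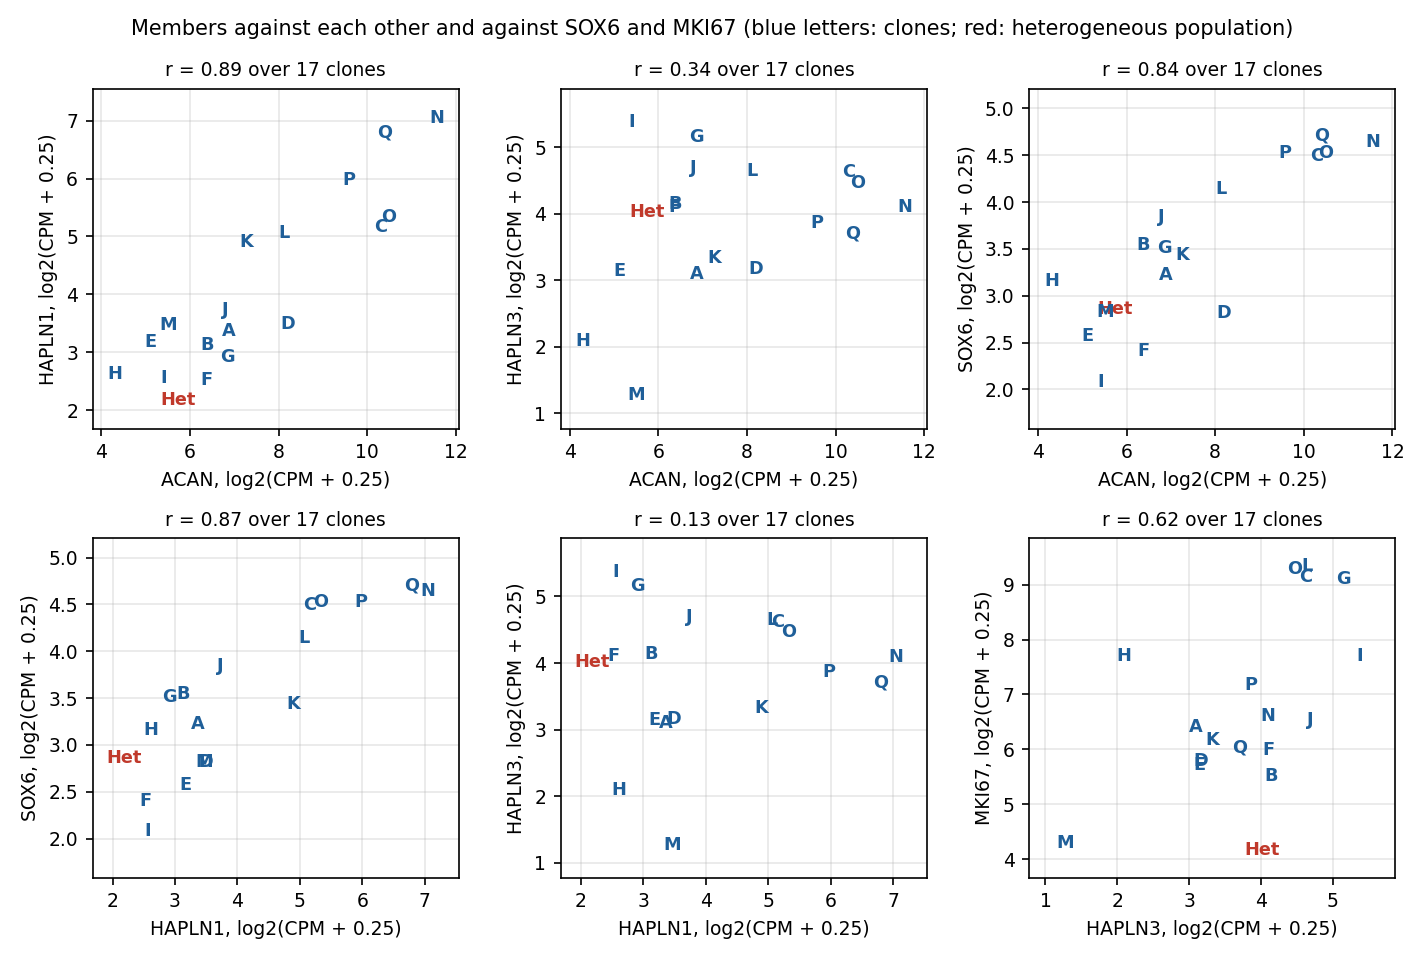
Each panel plots 2 genes on log2(CPM + 0.25), with blue letters for clones and red for Het, and r over the 17 clones as its title. ACAN and HAPLN1 rise together (r = 0.89) and both rise with SOX6 (0.84 and 0.87), whereas HAPLN3 scatters against ACAN (0.34) and HAPLN1 (0.13) and lies closer to MKI67 (0.62).

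To see what else went with each member, the counts of all other genes were fitted against its level with edgeR's quasi-likelihood test, giving a slope in log2 units per log2 unit of the member. With ACAN, 678 of 11226 genes were called (6.04%), 404 upward (3.6%) and 274 downward (2.44%). HAPLN1 was among them, ranking 4 by p, with a slope of 0.61 ± 0.069 (SE, n = 17, edgeR adjusted p = 0.000152). HAPLN3 had a slope of 0.04 ± 0.108 (edgeR adjusted p = 0.865). Scaled by library totals only, 517 genes went up and 168 down, and DESeq2 gave 587 and 594. The balance of directions thus rests on the normalization and the tool. In simulated counts with known slopes on ACAN, more of the DESeq2 calls than of the edgeR calls were false. The shares were 10.9% against 5.85% at slopes of 0.25, and 12.7% against 3.41% at slopes of 0.5. The number of calls was 1320 without clone H, 334 without N, 431 without Q and 432 without E.

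Of 18 tested cartilage genes 9 were called upward with ACAN and none downward, against 3.6% upward among all genes, and the median slope was 0.27 against 0.0082. The other 9 included negative slopes for RUNX2 (-0.0269) and RUNX3 (-0.41), regulators of cartilage maturation and bone, and COL11A1, the most abundant gene of the list, had a slope of 0.08 (edgeR adjusted p = 0.754, 0.138 and 0.382). PRG4, the lubricant lubricin of joint surfaces, had a slope of 1.36 and ranged from 0.488 to 602 CPM. COL9A2, a chain of the collagen on the surface of cartilage fibrils, had 1.08, SOX6 had 0.30, the ubiquitin ligase WWP2 0.25 and MIA, a protein secreted by chondrocytes, 0.43 (edgeR adjusted p = 0.00102 for PRG4 and COL9A2, 0.00235 for SOX6 and WWP2, 0.00344 for MIA). COL2A1 and SOX9 had slopes of 0.73 and 0.29 (edgeR adjusted p = 0.00637 and 0.0262). The SOX9 call was lost without E, N or O (adjusted p up to 0.0686 in edgeR), and limma-voom did not call PRG4 (adjusted p = 0.122) or COL9A2 (0.0594). The others called were COL11A2 and COMP, and COMP was lost without N (edgeR adjusted p = 0.0966) and with limma-voom (0.15). The clone medians of PRG4, COL9A2 and COMP were only 1.13, 0.775 and 1.92 CPM, and their lowest counts were 6, 2 and 2 reads. Their slopes thus rest partly on low counts.

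The genes that build and break the aggregate are given beside 3.6% called upward and 2.44% downward among all genes. Of 22 tested genes for chondroitin sulfate chains 3 were called upward and none downward (median slope 0.06). An unadjusted edgeR p under 0.05 was found for 13 of the 22, and for 2589 of the 11226 genes in all. Among those 13, CHST13 (-0.27) and DSE (-0.0482) had negative slopes. Those called were XYLT1, which adds the first sugar (0.24), the sulfotransferase CHST12 (0.15) and PAPSS2, which makes the sulfate donor (0.26), with edgeR adjusted p of 0.00664, 0.00628 and 0.0233. The PAPSS2 call was lost without C (or O) and when C and O were summed (0.20, edgeR adjusted p = 0.0674). Of 11 hyaluronan genes, the hyaluronidase HYAL2 was called (0.13, edgeR adjusted p = 0.0157, and 0.0538 without O), while HAS2, the receptor CD44 and HAS3 had slopes of 0.10, -0.0092 and -0.0355. Of 8 tested proteases and inhibitors that act on aggrecan, ADAMTS9, a protease of both aggrecan and versican, was called downward (-0.41, edgeR adjusted p = 0.0135, and 0.0588 without N), and the main aggrecanases ADAMTS4 and ADAMTS5 had slopes of 0.0198 and -0.0151.

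Contractile and adipocyte genes included calls in the other direction. Of 6 smooth muscle genes 3 were lower where ACAN was higher, ACTA2 (-0.46), TAGLN (-0.21) and CNN1 (-0.26), with none upward and 2.44% downward among all genes; their edgeR adjusted p were 0.0077, 0.0103 and 0.0274, and CNN1 was lost without E, I, N, P or Q (up to 0.0746, without N). The summed level of that list ran from 1933 to 10485 CPM in the clones. Among 6 adipocyte genes PPARG (-0.40) and CEBPA (-0.28), both regulators of fat cell formation, were called downward (edgeR adjusted p = 0.00317 and 0.00685). The fat cell products FABP4, ADIPOQ and LPL had slopes of 0.36, 0.33 and 0.11 (edgeR adjusted p = 0.0922, 0.0808 and 0.548), and the list median was 0.0422. None of the 8 proliferation genes was called, though all 8 slopes were positive (median 0.23). Of 10 tested matrix partners of versican, fibronectin (FN1) was called upward at 0.20 (edgeR adjusted p = 0.0459), a call lost in 13 of the 17 fits with a clone left out (up to 0.123, without N).

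With HAPLN1 as the measure, 1167 of 11226 genes were called (10.4%), 675 upward (6.01%) and 492 downward (4.38%). ACAN rose by 1.25 ± 0.155 log2 units per log2 unit of HAPLN1 (SE, n = 17, edgeR adjusted p = 0.000205), and HAPLN3 had a slope of -0.0648 ± 0.147 (edgeR adjusted p = 0.821). Scaling by library totals gave 977 upward and 259 downward, and DESeq2 816 and 821. The number of calls was 452 without N, 595 without Q and 721 without P. Of the 678 genes called with ACAN 558 were also called with HAPLN1, all in the same direction, which is 82.3% of the first set and 47.8% of the second. Both slopes come from the same 17 libraries, so the overlap is no independent evidence.

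Of the 18 tested cartilage genes 12 were called upward with HAPLN1 and none downward, against 6.01% upward among all genes (median slope 0.38 against 0.0116). PRG4 had a slope of 1.998, MIA 0.67 and SOX6 0.45 (edgeR adjusted p = 3.49e-05, 0.000402 and 0.000612), and FN1 had 0.37 (0.00355). Fibrillin-1 (FBN1), which versican binds in microfibrils, was called downward (-0.31, edgeR adjusted p = 0.0116, and lost without N or Q, up to 0.0693 without N). TAGLN (-0.32) and PPARG (-0.55) were lower (edgeR adjusted p = 0.00361 and 0.00391). The adipocyte list was split, with PPARG and CEBPA downward and the fat cell products FABP4 (0.62) and ADIPOQ (0.51) upward. Without N the edgeR adjusted p of FABP4, ADIPOQ and CEBPA were 0.452, 0.433 and 0.058. The ADIPOQ call was lost in 13 of the 17 fits with a clone left out. SOX5, SOX9 and COL2A1 had slopes of 0.28, 0.41 and 0.99 (edgeR adjusted p = 0.00599, 0.0309 and 0.0413). These 3 calls were less secure. SOX5 was lost without N, and SOX9 without B, F, N, P or Q (edgeR adjusted p up to 0.0749 and 0.0955, both without N). COL2A1 was lost without A, B, C, D, E, F, I, J, M, O or P (up to 0.0802, without P). In the chondroitin sulfate list 4 of 22 were called upward, XYLT1, CSGALNACT2, CHST12 and PAPSS1, with slopes from 0.17 to 0.31. Their edgeR adjusted p reached 0.120, 0.116, 0.0892 and 0.106 without N, Q, P and N, respectively. In the 17 fits with a clone left out, these calls were lost in 7, 2, 11 and 1.

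With HAPLN3 as the measure, edgeR called 0 of 11338 genes (0.0%), although 1679 had an unadjusted p under 0.05. DESeq2 called 5 and limma-voom 0. Without clone H, which has little HAPLN3 and a MKI67 level above the median, edgeR called 106 genes, and without D it called 1. ACAN had a slope of 1.14 ± 0.692 and HAPLN1 0.31 ± 0.478 (SE, n = 17, edgeR adjusted p = 0.438 and 0.784). These SEs are wide, so in this direction of fit slopes of the size seen between ACAN and HAPLN1 are not excluded by them. Fitted the other way, HAPLN3 had slopes of 0.04 ± 0.108 on ACAN and -0.0648 ± 0.147 on HAPLN1. Both are smaller than the 0.61 of HAPLN1 on ACAN and the 1.25 of ACAN on HAPLN1, but a difference between slopes was not tested. The fitted genes also differ in spread, with SDs of 1.06 log2 units for HAPLN3, 1.48 for HAPLN1 and 2.16 for ACAN. Sizes of these slopes are therefore not directly comparable.

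The proliferation genes were the list with the highest median slope on HAPLN3 among those in the plot of list slopes, at 0.77 against -0.0048 for all genes. The 8 slopes ran from 0.72 for BUB1 to 0.87 for CCNA2, each with an unadjusted p under 0.05 and each with an edgeR adjusted p of 0.227. The summed level of these genes ran from 49.4 CPM to 1360 CPM in the clones. With MKI67 added to the fit, an alternative chosen after seeing the data, the number of genes with an unadjusted p under 0.05 for HAPLN3 was 232 in place of 1679. The part of cell division in the HAPLN3 level was not tested. Of 18 cartilage genes none was called with HAPLN3, with a median slope of 0.06, and COL2A1 and SOX9 had slopes of 1.01 and 0.44 (edgeR adjusted p = 0.359 and 0.361).

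**Figure D4:**
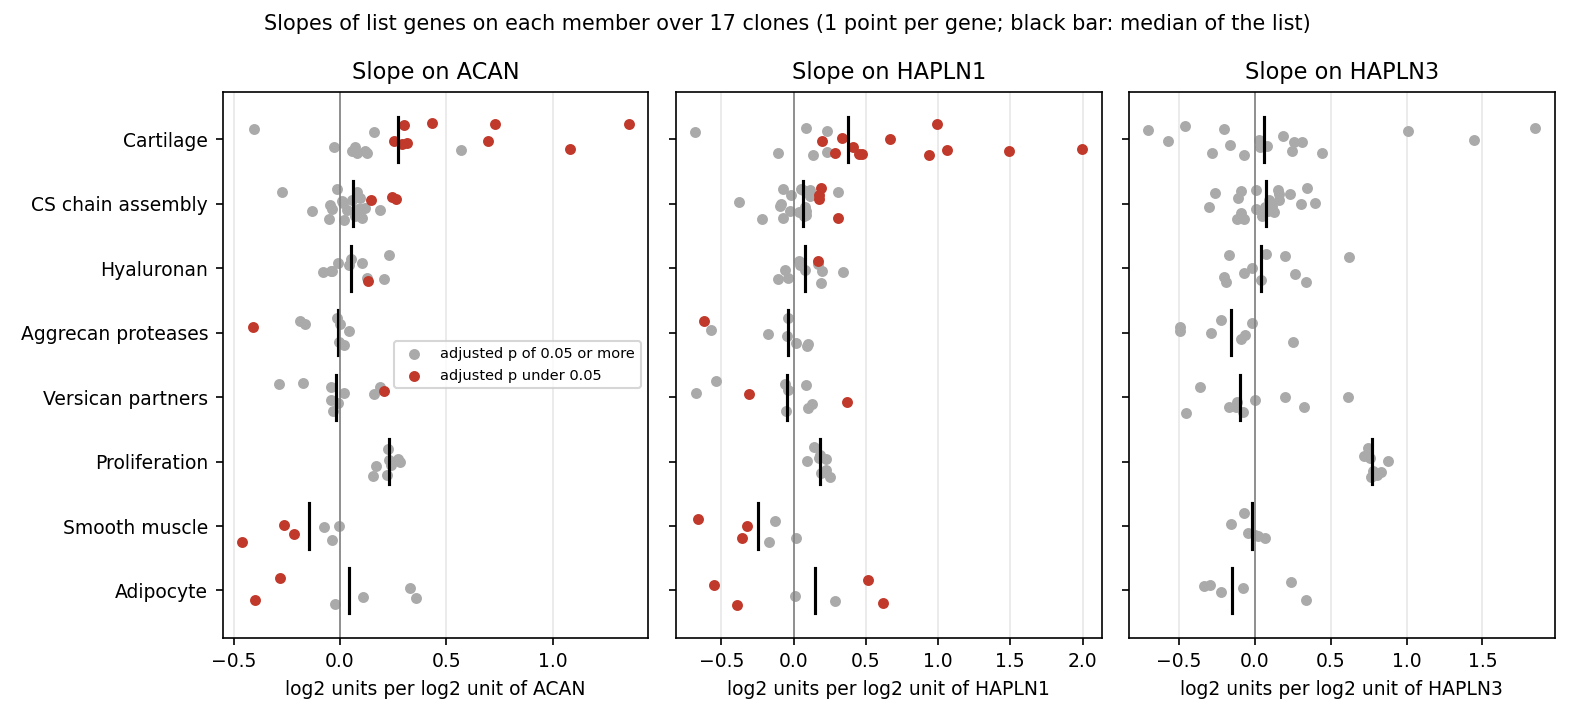
Slopes of tested genes of 8 lists on ACAN, HAPLN1 and HAPLN3 over the 17 clones, 1 point per gene, red where the edgeR adjusted p was under 0.05, with the list median as a black bar. Of the cartilage genes 9 of 18 are red to the right for ACAN and 12 of 18 for HAPLN1, and for HAPLN3 no point is red while the 8 proliferation genes sit between 0.72 and 0.87.

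The genes most like each member were ranked by r over the 17 clones among 10350 others that passed the filter on low counts, given here as a description without p. For ACAN they were S100B (r = 0.93), a calcium-binding protein also made by chondrocytes, WSCD2 (0.92), HAPLN1 (0.89), HIGD2A (0.89) and SYBU (0.88). The most opposite were FBLIM1 (-0.88), a filamin-binding protein of focal adhesions, IGFBP3 (-0.86), which binds insulin-like growth factors, and CNN2 (-0.85), a calponin. For HAPLN1 they were PROSER2 (0.93), S100B (0.92), WSCD2 (0.92), FRMD4B (0.91) and the homeobox gene HOXD9 (0.90), with ACAN at rank 7. S100B and WSCD2 were thus near the top for both, with ranges of 17.5 to 214 CPM and 0.501 to 95.2 CPM. The adhesion molecule N-cadherin (CDH2), at 10.2 to 338 CPM, was the most opposite to HAPLN1 (-0.92), followed by NAAA (-0.90) and TSPAN17 (-0.88). For HAPLN3 the leading r were lower, at 0.79 for MAPRE1, SNRNP27 0.79, ERH 0.78, SPNS3 0.78 and STRBP 0.76. ZNF275 (-0.72), KIAA1161 (-0.71) and KCTD11 (-0.70) were at the other end. ACAN ranked 3385 and HAPLN1 5742 for HAPLN3.

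The members form neighbouring pairs of lectican and link protein genes in the RefSeq gene table of assembly ARS-UCD2.0. ACAN lies next to HAPLN3 with 0 entries between, and VCAN is parted from HAPLN1 by 1 entry. The neighbour of ACAN, HAPLN3, was thus the link protein whose relation to it did not pass, while HAPLN1 lies elsewhere. Beyond HAPLN3, MFGE8 had a slope of 0.0009 on ACAN and ABHD2 -0.0165 (edgeR adjusted p = 0.995 and 0.863). On the other side the nearest counted genes, ISG20, AEN and DET1, lie 40, 41 and 44 entries away from ACAN. Their slopes on ACAN were 0.13, 0.04 and -0.0147, none called. EDIL3, a secreted integrin-binding protein next to HAPLN1, was called with both, at 0.57 on HAPLN1 and 0.36 on ACAN (edgeR adjusted p = 0.000552 and 0.0104). Its level was 51.8 to 918 CPM, and the ACAN call was lost without N (edgeR adjusted p = 0.0594). XRCC4, TMEM167A, ATP6AP1L and RASA1, the other tested neighbours of VCAN and HAPLN1, were not called. COX7C and RLBP1 had 0 to 2 reads.

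Het was compared with the 17 clones by edgeR, which assumes that this single library varies as the clones do. The filter on low counts could be passed through Het alone, and genes let in that way could come out only as higher. The balance of directions in this contrast is therefore set in part by the filter. In that contrast 145 of 11878 genes were called (1.22%), 144 of them higher in Het (1.21%) and 1 lower (0.00842%), and no member was called. DESeq2 gave 77 higher and 11 lower. ACAN was at 53.0 CPM in Het against a clone mean of 542 CPM, with a log2 difference of -3.20 ± 2.62 (SE, edgeR adjusted p = 0.767). HAPLN1 lay below all 17 clones, with a difference of -2.72 ± 1.86 (edgeR adjusted p = 0.726), and 10.9% of all genes likewise lay below every clone in Het. HAPLN3 differed by 0.005 ± 0.892 (edgeR adjusted p = 0.998), a value whose sign turned with the normalization (-0.108 with library totals only). With these errors a several-fold difference in ACAN or HAPLN1 would not have been detected.

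Of the remaining lectican and link protein genes, BCAN, NCAN and HAPLN2, best known from the brain, had at most 11 reads in any clone. HAPLN4 had 29 reads (1.80 CPM) in Het against 0 to 5 in the clones. It passed the filter on low counts only through Het, so no test is given for it. Of 15 macrophage markers 14 lay above every clone in CPM in the same library, C1QB with only 1 read. Of the 11878 tested genes 6.62% did so. That share has another base, since only 12 of the 15 markers were tested. Among them, 4 also passed the filter over the clones alone, and all 4 were higher in Het: CD68 (log2 difference 4.43), FCER1G (3.42), CSF1R (4.70) and MRC1 (3.82), with edgeR adjusted p of 6.97e-08, 7.62e-06, 1.26e-05 and 0.00463. CD163, a scavenger receptor of macrophages, was at 41.4 CPM in Het against at most 0.871 CPM in a clone. The proliferation genes summed to 40.5 CPM in Het, below the 49.4 CPM of the lowest clone. Their part in the levels of the members in Het was not tested, and in a bulk library fewer cells of a type and less RNA per cell cannot be told apart.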

How the data were processed

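The deposited values are raw counts, which the authors made per library from 50-bp single-end poly(A) reads, aligned to bosTau7 with STAR 2.3.0e and counted with HTSeq on RefSeq genes, without normalization. SAMtools is also named in the submitters' processing notes. Strand use in counting is not given in the sources used here, and the kit does not mark strand. A table of the whole series held the same values. The 5 tally lines of each library, which name no gene, stayed out of library sizes and tests, and reads outside genes were 18.8% to 26.8%. Library totals were 11484812 to 18458157, so 3 reads are 0.163 to 0.261 CPM, and intervals and limits cover counting error only.

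CPM by library total with a pseudocount of 0.25 gave levels, spreads and correlations (Pearson and Spearman, two-sided, 100000 permutations, Benjamini-Hochberg over 27 relations). Counts were fitted with edgeR 4.0.16 under R 4.3.3 (filterByExpr, TMM, glmQLFit and glmQLFTest), either as a slope on log2(CPM + 0.25) of each member over 17 clones or as Het against the clones, adjusted over all genes tested at 0.05. The SE of each edgeR slope or difference was its absolute value divided by the square root of the test's F statistic. The fits were tested on simulated data. DESeq2 1.42.0, limma-voom (limma 3.58.1), other scalings, filters and pseudocounts, and leaving out each clone were alternatives. Levels and correlations used scipy 1.17.1, numpy 2.4.6 and pandas 2.3.3 under Python 3.11.15, and plots used matplotlib 3.10.9.

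Members and gene lists were chosen with earlier results of these data known. Named genes were the members, the 5 most and 3 least alike by r, the 3 nearest counted neighbours on each side, the genes of the correlations, and of called list genes the 6 with the smallest p in each fit. Other called list genes were named after their values were seen. ARS-UCD2.0 is another build than that of the files, so only names and gene order were taken from it (16335 of 16989 symbols matched), and no coordinates or sequences are given. Since each clone is 1 library, p-values rest on the spread between clones, and separate cultures of a clone were not measured.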

Additional observations from a re-analysis of the deposited data

How the results depend on the processing

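The limits are those of 17 libraries, 1 per clone. With DESeq2 the numbers of called genes were 88 for Het, 1181 for the slope on ACAN and 5 for that on HAPLN3. With MKI67 in the fit, chosen after seeing the data, HAPLN1 had 1980. With each clone left out in turn, the calls ranged from 137 to 155 for Het, 334 (without N) to 1320 (without H) for ACAN, 452 (without N) to 1572 (without H) for HAPLN1 and 0 to 106 (without H) for HAPLN3. The r ranged from 0.863 to 0.912 for ACAN with HAPLN1, 0.207 to 0.490 for ACAN with HAPLN3 and 0.0181 to 0.267 for the link proteins, and the SDs from 1.97 to 2.23 for ACAN, 1.33 to 1.53 for HAPLN1 and 0.864 to 1.10 for HAPLN3. In the 12 clones below the ACAN step, also chosen after seeing the data, r was 0.644 for ACAN with HAPLN1 (adjusted permutation p = 0.214), and it changed sign for HAPLN1 with HAPLN3 (-0.00525), ACAN with HAS2 (-0.296), HAPLN1 with HAS2 (-0.231), HAPLN1 with library size (-0.183) and HAPLN3 with COL2A1 (-0.016). HAPLN1 with library size was -0.0266 with Het included. The causes were not tested.

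Other signs that turned belonged to values that passed no threshold. The Het difference of HAPLN3 was -0.002 with DESeq2 size factors, -0.108 with library totals, -0.0018 with DESeq2 and -0.0704 to 0.136 with a clone left out. Its slope on ACAN was -0.0293 with MKI67 in the fit and -0.0223 to 0.132 with a clone left out, and its slope on HAPLN1 was 0.0727 with limma-voom and -0.118 to 0.0326. With a clone left out, r ran from -0.0901 to 0.125 for HAPLN1 with library size, -0.00822 to 0.280 for HAPLN3 with SOX5 and -0.194 to 0.232 for HAPLN3 with HAS2. Summing C and O left 604 calls for ACAN and 1145 for HAPLN1. Over single genes in the fits and relations of members with other measures, 2035 alternative values kept direction and side of the threshold. Of the rest, 142 lost the call, 6 gained one and 26 changed sign. The planned fits on VCAN were not run, having 3 reads. No paired analysis was possible because each clone number names 1 library and Het has no partner.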
